A study of Mus musculus with 6 samples.

Results

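The genes of the interleukin 6 receptor and Stat3 pathway were followed in mouse alveolar type II cells, which make and secrete lung surfactant. The group held 10 genes: the cytokine Il6, the receptor chains Il6ra, Il6st, Osmr and Lifr, the kinase Jak1, the transcription factor Stat3, the feedback inhibitors Socs1 and Socs3, and the transcription factor Cebpd. They were chosen by symbol, from probe sets that carry 1 gene symbol, and all 10 were present among 19938 genes. Where several probe sets stood for a gene, that with the highest 6-array mean was taken.

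The 3 arrays labelled knockout held RNA of mice with 2 transgenes, SP-C-rtTA and (tetO)7CMV-Cre, and with the conditional allele Gpr116flx/flx. The 3 control arrays held RNA of mice with both transgenes alone. Both groups therefore carried the transactivator and the Cre transgene. The labels list no conditional Gpr116 allele for the controls. The transactivator is driven by a surfactant protein C promoter, so recombination is directed at cells that use this promoter. All mice were 8 weeks old, and cells of 3 mice were pooled for each array after collagenase digestion and differential plating. Gpr116, now named Adgrf5, is an adhesion receptor, and the study asked how its loss changes the transcripts of type II cells.

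In this pathway a cytokine binds its own receptor chain and then a shared signalling chain encoded by Il6st, known as gp130. Janus kinases on the receptor phosphorylate STAT3, which enters the nucleus and switches on acute phase genes, survival genes and its own inhibitor SOCS3. In the lung the pathway is known for its part in the epithelial response to infection and injury.

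Values are log2 expression values from the RMA method, and a difference of 1 is a doubling. Differences are given as labelled knockout minus control. A gene was called when its limma p, adjusted over all 19938 genes by the Benjamini-Hochberg method, was under 0.05. The probe set of Adgrf5 itself read 11.89, 11.78 and 11.87 on the arrays labelled knockout, against 11.49, 11.53 and 11.51 on the control arrays. It was thus not lower but called higher under the knockout label, at 0.34 ± 0.05 (SE; limma adjusted p = 0.0119), with no overlap. This call was lost without control 1 (adjusted p = 0.0611), control 2 (0.0596) or control 3 (0.0648). Whether its probes lie inside the part that Cre removes is unknown here, so its level checks nothing about the deletion, and every direction below rests on the labels. Type II cell markers were high on all arrays, averaging 12.07 to 12.13 over 10 genes on the arrays labelled knockout and 12.02 to 12.04 on the control arrays. Array medians over all probe sets lay between 6.77 and 6.81.

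Of the 10 pathway genes 1 was called, and it was higher: Osmr. Over all genes, 3.36% were called higher and 5.13% lower. Il6ra had the most negative difference of the 10, without a call. The 10 genes had a median difference of 0.063, against 0.0033 over all genes tested. Differences ran from -0.41 for Il6ra to 0.42 for Osmr. The values of the 2 groups did not overlap for Osmr, Stat3 and Il6ra, 3 of 10 genes, and 27.6% of all genes showed no overlap. Osmr and Stat3, 2 of 10, lay above the controls, against 14.8% of all genes, and 1 below, against 12.8%. An unadjusted p under 0.05 was reached by 5 of the 10, against 22.1% of all genes.

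**Figure D1:**
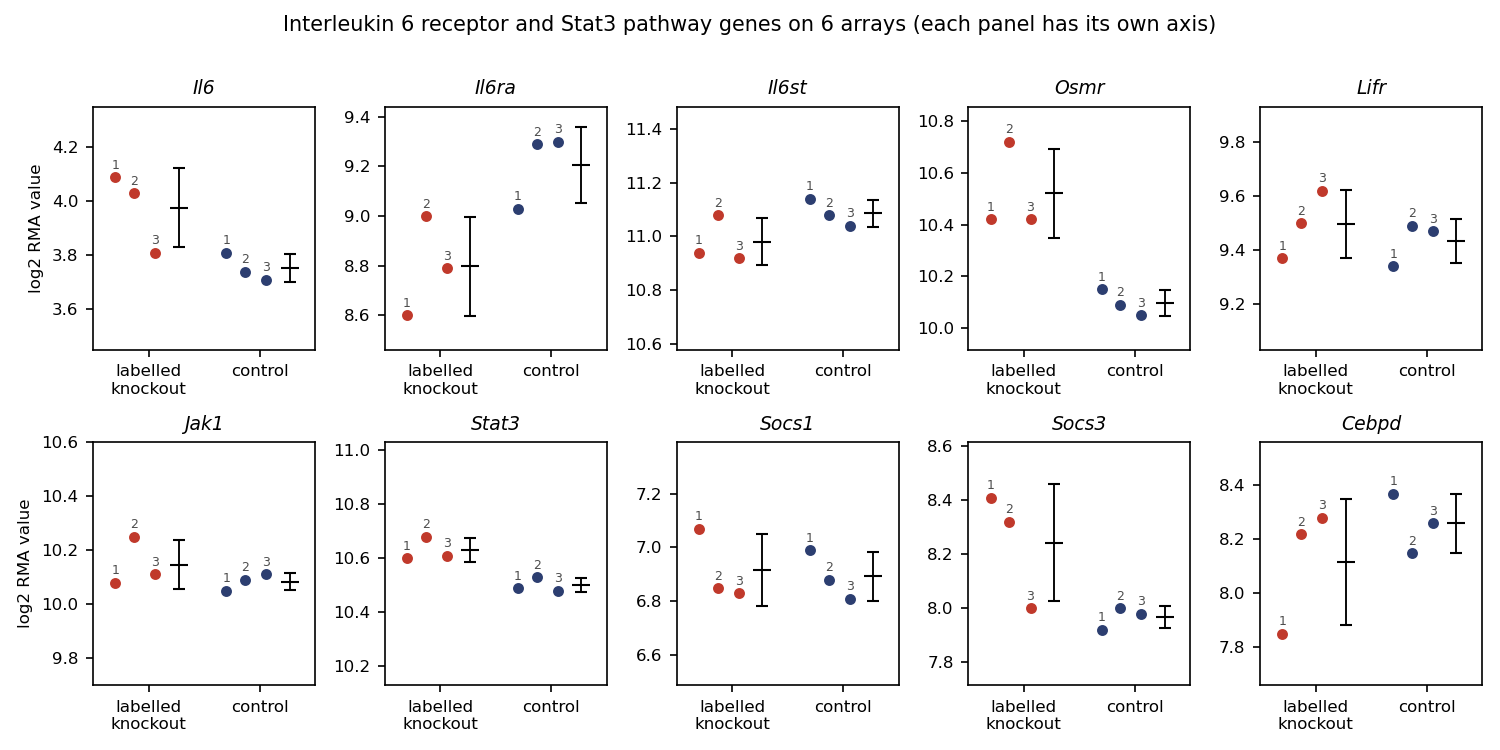
Log2 RMA values of the 10 pathway genes, with 1 point per array numbered by replicate; arrays labelled knockout are red and control arrays blue, and the black bar is the mean ± SD of 3 arrays. Osmr and Stat3 lie higher and Il6ra lower on all 3 arrays labelled knockout than on any control array, and the groups overlap in the other panels.

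Of the 4 receptor chains, 1 was called. Osmr encodes the chain that pairs with gp130 to bind oncostatin M. It read 10.42, 10.72 and 10.42 on the arrays labelled knockout, against 10.15, 10.09 and 10.05 on the control arrays. Every array labelled knockout was above every control array, and knockout 2 stood highest. The means were 10.52 ± 0.17 and 10.10 ± 0.05 (SD, n = 3 each), a difference of 0.42 ± 0.09 (SE), or 1.34-fold (limma adjusted p = 0.0341). The call was lost without knockout 3 (adjusted p = 0.0601), control 1 (0.0980), control 2 (0.130) or control 3 (0.137).

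Fibroblasts are known to use Osmr, and the mean of the fibroblast markers was also highest on knockout 2, although not every marker was. Over 10 genes they averaged 9.26, 9.86 and 9.38 on the arrays labelled knockout, against 9.63, 9.55 and 9.41 on the control arrays. The log2 of their summed linear values was 13.44 to 13.98 against 13.44 to 13.60, and 0 of 10 were called by limma, with 1 at an unadjusted p under 0.05. RMA gives no value of 0, so no marker can be said to be absent. Without knockout 2 the Osmr difference was 0.32 (adjusted p = 0.0223). Leaving out 1 array is no test of fibroblasts, and their part in the Osmr values was not tested. In pooled cells, more cells of a type and more RNA per cell cannot be told apart.

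Il6ra encodes the chain that binds interleukin 6 itself. It read 8.60, 9.0 and 8.79 on the arrays labelled knockout, against 9.03, 9.29 and 9.30 on the control arrays. All 3 arrays labelled knockout were below the controls, although knockout 2 lay close to control 1. The difference was -0.41 ± 0.12 (SE, n = 3 each; limma adjusted p = 0.0895), with a 95% interval of -0.69 to -0.13. In a fit paired by replicate number (a block per number), the same difference was called (limma adjusted p = 0.0240). The labels do not state such a pairing. Without knockout 2 it was -0.51 and also called (adjusted p = 0.0347). Without knockout 1, the array with the lowest Il6ra value, it was -0.31 (adjusted p = 0.140).

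Knockout 1 also carried the highest lymphocyte marker mean. Over 10 genes it was 6.20 there, 5.56 on knockout 2 and 5.59 on knockout 3, against 5.53 to 5.64 on the control arrays. The T cell markers on the list were highest on knockout 1, but not all B cell markers were. Of the lymphocyte markers 0 of 10 were called by limma, and 0 had an unadjusted p under 0.05. The macrophage marker mean was 5.63 to 5.71 on the arrays labelled knockout and 5.63 to 5.70 on the control arrays, with 0 of 10 called by limma and 0 at an unadjusted p under 0.05. Ciliated cell markers, in contrast, were called lower in 10 of 10 cases, where 5.13% of all genes were called lower. Their mean was 8.44, 8.06 and 7.89 against 9.20, 9.10 and 9.22. Club cell markers were called lower in 3 of 6. The part of these cell types in the Il6ra values was not tested.

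The shared chain gp130 and the leukaemia inhibitory factor receptor showed smaller differences. Il6st read 10.94, 11.08 and 10.92 on the arrays labelled knockout, against 11.14, 11.08 and 11.04 on the control arrays. Knockout 2 equalled control 2, so the groups touched. The difference was -0.11 ± 0.06 (limma adjusted p = 0.394), with a 95% interval of -0.26 to 0.04. Lifr, whose product pairs with gp130 to bind leukaemia inhibitory factor, read 9.37, 9.50 and 9.62 against 9.34, 9.49 and 9.47. Its groups overlapped, and the difference was 0.06 ± 0.08 (limma adjusted p = 0.723; 95% interval -0.12 to 0.25).

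**Figure D2:**
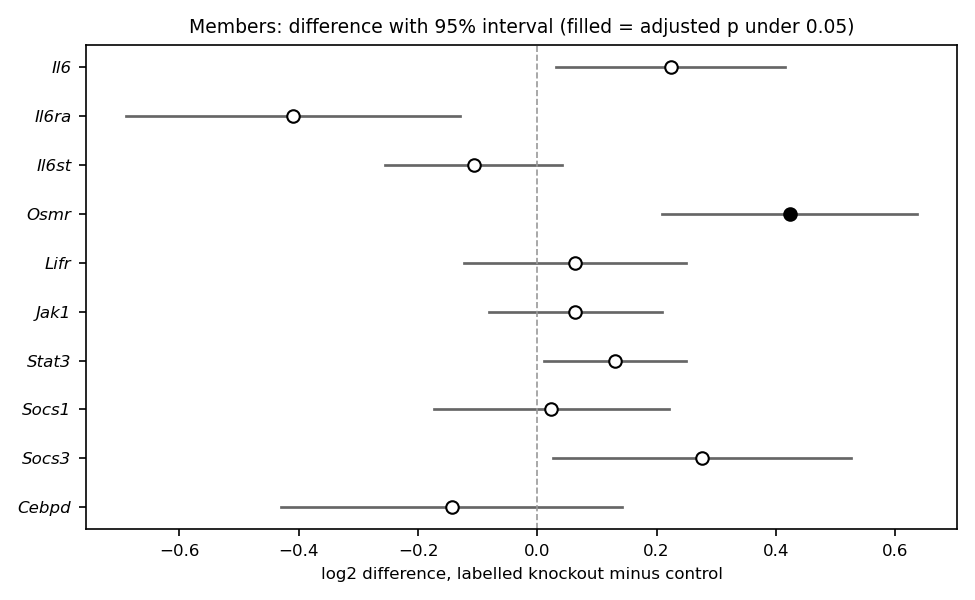
Log2 difference, labelled knockout minus control, of each pathway gene (points) with its unadjusted 95% interval from the limma fit (lines); the filled point marks an adjusted p under 0.05. Only Osmr, at 0.42, is filled. The Il6ra interval lies below 0, and the intervals of Il6, Stat3 and Socs3 lie above 0 without a call.

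The cytokine Il6 read 4.09, 4.03 and 3.81 on the arrays labelled knockout, against 3.81, 3.74 and 3.71 on the control arrays. Knockout 3 equalled control 1, and the other 2 arrays labelled knockout were higher. The difference was 0.22 ± 0.08 (limma adjusted p = 0.164; 95% interval 0.03 to 0.42). The mean of this probe set lay at the 4.22 percentile of all gene means. The deposited table holds no detection call, so whether Il6 was above background is not known here, and differences of dim probe sets are compressed.

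The kinase Jak1, which phosphorylates the receptor chains and STAT3, read 10.08, 10.25 and 10.11 on the arrays labelled knockout, against 10.05, 10.09 and 10.11 on the control arrays. The groups overlapped, at a difference of 0.06 ± 0.06 (limma adjusted p = 0.628; 95% interval -0.08 to 0.21). Stat3, the transcription factor at the centre of the pathway, read 10.60, 10.68 and 10.61 against 10.49, 10.53 and 10.48. All 3 arrays labelled knockout were above the controls by a narrow margin. The difference was 0.13 ± 0.05 (limma adjusted p = 0.185; 95% interval 0.01 to 0.25), or 1.09-fold. The level of Stat3 transcript does not measure STAT3 phosphorylation, which these arrays do not record.

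Neither of the 2 feedback inhibitors was called. Socs3, which blocks gp130 signalling and is itself a STAT3 target, read 8.41, 8.32 and 8.00 on the arrays labelled knockout, against 7.92, 8.00 and 7.98 on the control arrays. Knockout 1 and knockout 2 were high, and knockout 3 equalled control 2. The difference was 0.28 ± 0.11 (limma adjusted p = 0.181; 95% interval 0.03 to 0.53). Without knockout 3 it was 0.40 and called (adjusted p = 0.0264). A second Socs3 probe set read 6.61, 6.66 and 6.49 against 6.53, 6.46 and 6.33, a difference of 0.15 ± 0.07 in the same direction, not called (limma adjusted p = 0.311 over all probe sets with 1 symbol). Socs1, an inhibitor of Janus kinases best known from interferon signalling, read 7.07, 6.85 and 6.83 against 6.99, 6.88 and 6.81. Its difference was 0.02 ± 0.08 (limma adjusted p = 0.920; 95% interval -0.17 to 0.22).

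Cebpd encodes a transcription factor of the acute phase response and is a STAT3 target. It read 7.85, 8.22 and 8.28 on the arrays labelled knockout, against 8.37, 8.15 and 8.26 on the control arrays. Knockout 1 was the lowest, and the other 2 lay among the controls. The difference was -0.14 ± 0.12 (limma adjusted p = 0.568; 95% interval -0.43 to 0.14).

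Promoter sequence was available from RefSeq (GRCm38.p6) for 9 of the 10 genes, all but Cebpd. The 250 bases before each start that had sequence were searched on both strands. The motifs were TTCNNNGAA, the palindromic core bound by STAT factors, and TTNNGNAA, a loose form of the C/EBP motif. The 2 motifs can overlap each other. The first was found before 7.02% and the second before 36.8% of 32851 annotated starts in mouse. Among the pathway genes, 1 of 10 starts held the STAT motif, that of Socs3, and 3 of 10 held the C/EBP motif, those of Il6, Il6ra and Stat3. The windows of Osmr, the called gene, and of Socs3, the gene with the match, are shown to set them side by side, 5′ to 3′ on the minus strand at chr15:6874314-6874563 and chr11:117969367-117969616, with the STAT motif in capitals. A match is a run of letters and not a measured binding site.
Osmr: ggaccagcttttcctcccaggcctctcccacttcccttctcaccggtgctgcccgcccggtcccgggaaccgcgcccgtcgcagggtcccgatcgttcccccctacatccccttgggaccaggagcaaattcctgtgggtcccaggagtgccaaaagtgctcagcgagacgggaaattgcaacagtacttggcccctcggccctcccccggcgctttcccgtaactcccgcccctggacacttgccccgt
Socs3: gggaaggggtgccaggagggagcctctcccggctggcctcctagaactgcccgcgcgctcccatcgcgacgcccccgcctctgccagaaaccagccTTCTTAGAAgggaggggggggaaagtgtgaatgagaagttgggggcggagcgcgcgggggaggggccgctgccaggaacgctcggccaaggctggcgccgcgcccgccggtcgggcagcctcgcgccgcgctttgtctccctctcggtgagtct
The Socs3 match lies 154 to 146 bases before the start used, and the Osmr window holds neither motif. Both windows lie inside the annotated genes, which reach 6874968 for Osmr and 117970336 for Socs3. The Lifr windows likewise lie inside a gene that begins at 7090610. The outermost starts of Osmr, Socs3 and Lifr were therefore not searched. The windows of Stat3 and Jak1 lie partly inside genes that reach 100939594 and 101265282. They cover only part of the 250 bases before those outermost starts.

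The wider pathway was read from lists of other ligands, receptors, kinases, STATs, inhibitors and targets. Of 8 measured ligands of the family 0 were called by limma, and 1 had an unadjusted p under 0.05. That was Ctf1, a gp130 ligand first known from heart muscle, at -0.14 ± 0.05 (adjusted p = 0.179). Lif was at 0.16 ± 0.11 (adjusted p = 0.489). Osm, the ligand of the Osmr chain, read 5.34, 5.16 and 5.27 on the arrays labelled knockout, against 5.31, 5.20 and 5.30 on the control arrays, so the groups overlapped. Osm was chosen after its values were seen.

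Among 5 measured further receptors and receptor-shedding proteases, 1 was called, higher, where 3.36% of all genes were called higher. Adam17 encodes the protease that releases the interleukin 6 receptor from the cell surface. It read 9.39, 9.59 and 9.63 on the arrays labelled knockout, against 9.10, 9.20 and 9.21 on the control arrays, with no overlap. The difference was 0.37 ± 0.08 (limma adjusted p = 0.0316). The call was lost without knockout 2 (adjusted p = 0.0605), knockout 3 (0.0976), control 1 (0.121), control 2 (0.108) or control 3 (0.102). The related protease Adam10, chosen after its values were seen, was at 0.27 ± 0.08 without a call (adjusted p = 0.0891), and was called without knockout 2 (0.0493).

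Of 7 other Janus kinases and STATs 0 were called by limma, and 3 had an unadjusted p under 0.05, against 22.1% of all genes. Stat4, best known from lymphocytes, read 5.62, 5.24 and 5.03 on the arrays labelled knockout, against 5.95, 5.87 and 5.68 on the control arrays. The difference was -0.54 ± 0.15 (limma adjusted p = 0.0810), and it was called with replicate number as a blocking term (adjusted p = 0.0203) and without knockout 1 (0.00761). Its 3 values under the knockout label have the order of the ciliated marker means given above. The control values do not, as control 3 was lowest for Stat4 and highest for the ciliated mean. The part of ciliated cells was not tested. Jak2 was at 0.20 ± 0.06 with no overlap (adjusted p = 0.0848), and was called without knockout 2 (0.0445).

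Negative regulators had 2 of 14 called, both higher, where 3.36% of all genes were called higher, with a list median of 0.11. Ptpn11 encodes SHP2, a phosphatase recruited to gp130 that also relays the signal to the MAP kinase pathway. It read 9.77, 9.74 and 9.76 on the arrays labelled knockout, against 9.55, 9.46 and 9.46 on the control arrays. The difference was 0.27 ± 0.05 (limma adjusted p = 0.0236), and in the paired fit, blocked by replicate number, the call was lost (adjusted p = 0.0507). It was also lost without knockout 3 (0.0706), control 1 (0.0579), control 2 (0.114) or control 3 (0.102). Socs6, another member of the SOCS family, read 8.29, 8.24 and 8.31 against 7.96, 8.01 and 7.98, a difference of 0.30 ± 0.05 (limma adjusted p = 0.0144). This call was lost without any 1 control array (adjusted p of 0.0657 to 0.0734). Its other 2 probe sets stood at 0.36 ± 0.13 and 0.07 ± 0.05 and were not called (adjusted p = 0.174 and 0.510), and the mean over all of them was not called either (0.0919). Of the 14 regulators 6 lay above all controls on every array labelled knockout, where 14.8% of all genes did so, and 0 below, where 12.8% did.

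**Figure D3:**
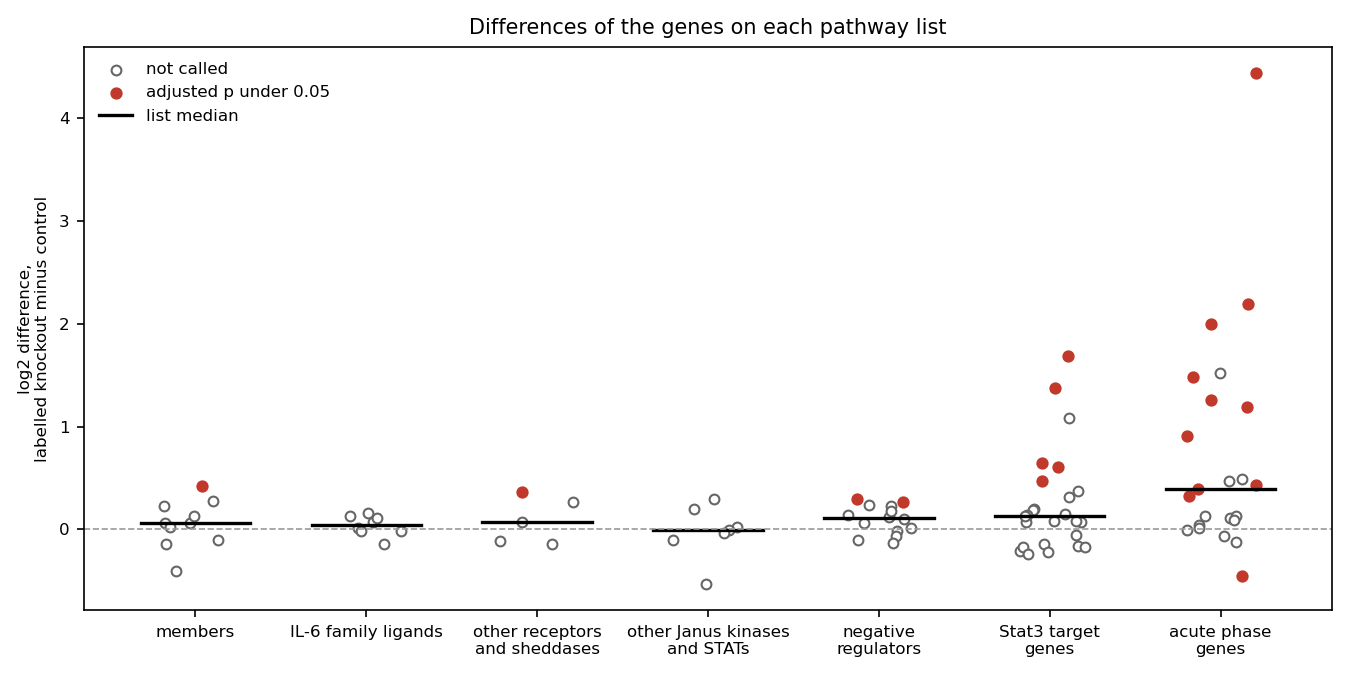
Log2 difference, labelled knockout minus control, of every measured gene on the 7 lists; red points have an adjusted p under 0.05 and black lines are list medians. The medians of members, ligands, receptors, kinases and STATs lie between -0.0033 and 0.067, that of the acute phase genes at 0.39, and Saa3 is the topmost point at 4.45.

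The list of STAT3 target genes had 5 of 25 called higher and 0 lower, with a median of 0.13. Over all genes 3.36% were called higher. An unadjusted p under 0.05 was reached by 12 of the 25, against 22.1% of all genes. The list was drawn up with earlier results of these data known, so its counts are a description. Il4ra, the interleukin 4 receptor chain, read 8.79, 8.79 and 8.82 on the arrays labelled knockout, against 8.22, 8.23 and 8.12 on the control arrays. This was a difference of 0.61 ± 0.05 (limma adjusted p = 0.00389). Steap4, a metalloreductase induced by inflammatory cytokines, read 9.74, 10.49 and 10.18 against 8.73, 8.89 and 8.66. Icam1, an adhesion molecule for leukocytes, read 11.01, 10.86 and 10.86 against 10.56, 10.38 and 10.39. Both groups of values stood apart in each of these 3 genes.

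Steap4 differed by 1.38 ± 0.18 (limma adjusted p = 0.00670) and Icam1 by 0.47 ± 0.07 (adjusted p = 0.0123). The survival kinase Pim1 read 8.87, 8.56 and 8.32 on the arrays labelled knockout, against 7.82, 7.95 and 8.04 on the control arrays. Its difference was 0.65 ± 0.14 (limma adjusted p = 0.0332), and blocking by replicate number ended the call (0.0592). Timp1, an inhibitor of metalloproteinases, read 8.49, 9.56 and 8.51 against 7.49, 7.12 and 6.89. Timp1 and Steap4 stood highest on knockout 2, where the fibroblast marker mean was also highest. Without that array they differed by 1.33 and 1.20, both called. The part of fibroblasts in these values was not tested. Without 1 array, calls were lost for Pim1 (knockout 2 at 0.0555, control 1 at 0.123, control 2 at 0.119 and control 3 at 0.0971), Timp1 (control 1 at 0.0513, control 2 at 0.0822 and control 3 at 0.0918) and Icam1 (control 2 at 0.0661 and control 3 at 0.0699).

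The other 20 targets were not called. Of all 25 targets 17 had a positive difference and 8 a negative one. The transcription factor Cebpb was at -0.14 ± 0.07, Junb at -0.16 ± 0.07 and Fos at -0.21 ± 0.08, none of them called (limma adjusted p of 0.327, 0.259 and 0.158). Fos lay below all controls on every array labelled knockout, where 12.8% of all genes did so, and the other 2 overlapped. Bcl3, a nuclear partner of NF-kappaB, lay above all controls at 0.31 ± 0.08 and just missed the threshold (adjusted p = 0.0530). It was called without knockout 3 (0.0212). These 4 genes were chosen after their values were seen.

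Of 23 measured acute phase genes of the interleukin 6 response 10 were called higher and 1 lower, with a list median of 0.39, where 3.36% of all genes were called higher and 5.13% lower. This list too was chosen with earlier results known. The largest difference was that of Saa3, at 4.45 ± 0.28. Itih4, an acute phase protein of the inter-alpha-trypsin inhibitor family, read 11.54, 11.60 and 11.66 on the arrays labelled knockout, against 10.35, 10.33 and 10.34 on the control arrays. Its difference was 1.26 ± 0.05 (limma adjusted p = 0.000505). Orm1, an orosomucoid carrier protein, read 6.79, 6.95 and 7.11 against 5.58, 5.68 and 6.01, a difference of 1.19 ± 0.13 (adjusted p = 0.00487). In both genes the groups were far apart. Lcn2 at 0.91 ± 0.07, Lrg1 at 2.0 ± 0.16 and Fgg at 2.19 ± 0.20 were the other called genes with the smallest p.

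Neutrophils are known to make several of these target and acute phase proteins, among them that of Lcn2. Averaged over 8 neutrophil markers, arrays labelled knockout read 5.23, 5.41 and 5.26, against 5.09, 5.12 and 5.02 on the control arrays. This average was above every control on all 3 arrays labelled knockout and highest on knockout 2, as Timp1 and Steap4 were. Only 2 of the 8 markers, Retnlg and Mmp8, themselves lay above all controls on every array labelled knockout, where 14.8% of all genes did so. Both were highest on knockout 2. The groups overlapped for the other 6, so the average does not describe the list as a whole. The log2 of the summed linear values was 8.41 to 8.63 against 8.22 to 8.30. Over all genes 3.36% were called higher, and of the 8 markers 1 was called, higher. This was Retnlg, at 0.58 ± 0.13 (limma adjusted p = 0.0382), and the call was lost without knockout 1 (0.0683), knockout 2 (0.0625), control 1 (0.0987), control 2 (0.104) or control 3 (0.137). Mmp8, a collagenase of neutrophil granules, read 4.56, 6.44 and 5.29 against 4.43, 4.37 and 4.36, at 1.04 ± 0.42 without a call (adjusted p = 0.200), and was called without knockout 1 (0.0267). The calprotectin genes S100a8 and S100a9, which neutrophils hold in large amounts, read 4.61 to 4.67 and 5.81 to 5.91 on the arrays labelled knockout, against 4.61 to 4.67 and 5.82 to 5.88 on the control arrays. Retnlg, Mmp8, S100a8 and S100a9 were chosen after their values were seen. The part of neutrophils in the target and acute phase values was not tested.

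Haptoglobin, an acute phase haemoglobin carrier and the one listed gene that was called lower, was named after its values were seen. Hp read 12.00, 11.80 and 11.58 on the arrays labelled knockout, against 12.31, 12.23 and 12.21 on the control arrays. The difference was -0.46 ± 0.10 (limma adjusted p = 0.0423). Its values under the knockout label fall in the order of the ciliated marker means. The control values do not, as control 3 was lowest for Hp and highest for the ciliated mean. The part of ciliated cells was not tested. The call was lost without knockout 2 (adjusted p = 0.0698), knockout 3 (0.0741), control 1 (0.147), control 2 (0.140) or control 3 (0.132), and when arrays were centred on their medians (0.0531).

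**Figure D4:**
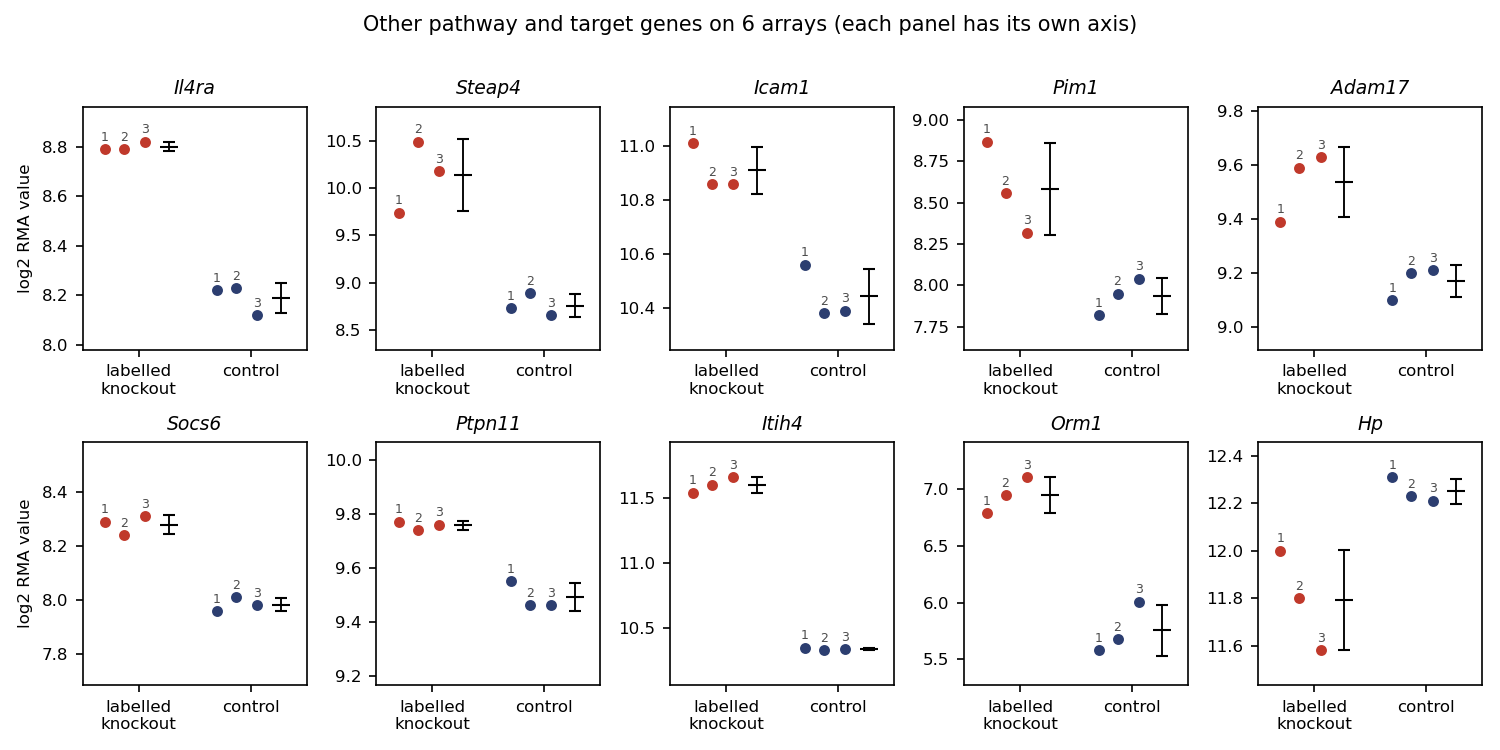
Log2 RMA values of 10 further pathway and target genes, with 1 point per array numbered by replicate, arrays labelled knockout in red and control arrays in blue, and the mean ± SD of 3 arrays in black. In 9 panels all 3 arrays labelled knockout lie above the control arrays, and in the Hp panel they lie below.

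The promoters of the called target and acute phase genes were searched in the same way. A promoter was available for 12 of 16 called genes, and 4 of the 12 held TTCNNNGAA in the 250 bases before a start. Of the genes on these lists that were not called, 27 of 32 had a promoter and 6 of the 27 held the motif. The 4 called genes are shown with up to 25 bases on each side of the match, which is in capitals, on the plus strand of GRCm38.p6, so that the core can be set beside that of Socs3. They are Icam1 at chr9:21015873-21015931, Steap4 at chr5:7960331-7960389, the fibrinogen chain gene Fga at chr3:83025903-83025952 and Itih4 at chr14:30886400-30886458.
Icam1: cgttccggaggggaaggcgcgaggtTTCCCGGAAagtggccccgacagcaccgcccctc
Steap4: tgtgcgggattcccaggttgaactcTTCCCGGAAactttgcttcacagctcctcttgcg
Fga: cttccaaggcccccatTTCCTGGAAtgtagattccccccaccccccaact
Itih4: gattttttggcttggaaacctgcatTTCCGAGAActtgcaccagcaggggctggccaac
The matches begin 42, 116, 234 and 51 bases before the start in that order. Icam1 and Steap4 share the same 9 letters, TTCCCGGAA, and Socs3 has TTCTTAGAA. Fga, named here for its match and after its values were seen, differed by 0.39 ± 0.09 (limma adjusted p = 0.0388). Its call was lost without knockout 3 (0.0804), control 1 (0.135), control 2 (0.154) or control 3 (0.0825). It was also lost with the mean over its probe sets, at 0.16 (0.228), and when all probe sets were tested (0.0823). A second Fga probe set went the other way, at -0.07 ± 0.09, with overlapping groups and no call (limma adjusted p = 0.736 over all probe sets with 1 symbol).

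**Figure D5:**
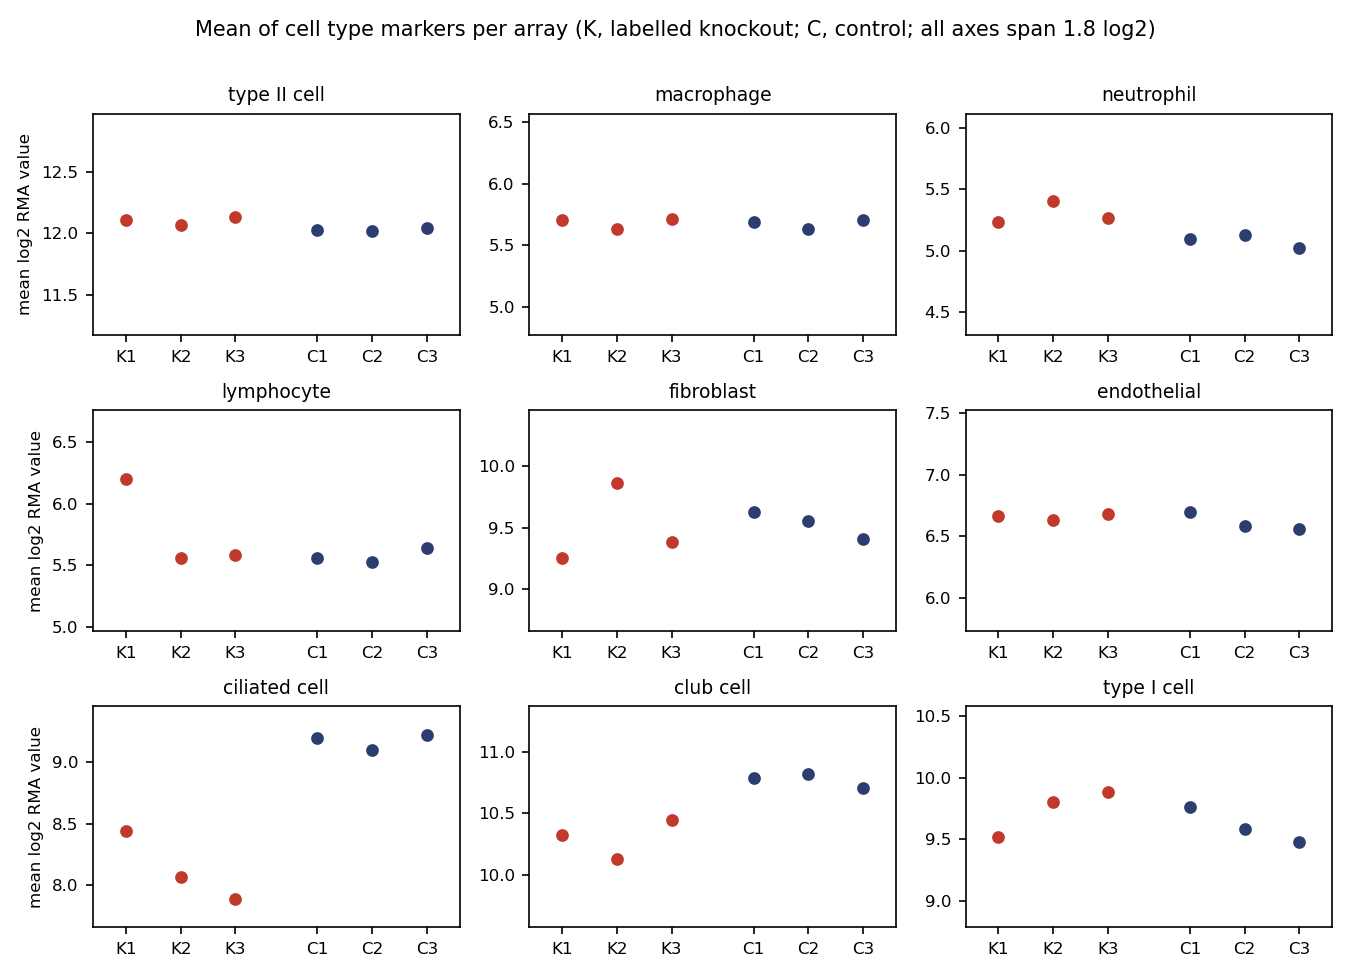
Mean log2 RMA value of 9 lists of cell type markers on each array, with arrays labelled knockout (K) in red and control arrays (C) in blue; all vertical axes span the same range. Knockout 1 stands highest for lymphocyte markers at 6.20 and knockout 2 for fibroblast markers at 9.86, and all 3 arrays labelled knockout lie below the controls for ciliated and club cell markers. They lie above the controls for neutrophil markers, at 5.23 to 5.41 against 5.02 to 5.12, and for type II cell markers, at 12.07 to 12.13 against 12.02 to 12.04. Of the 8 neutrophil markers only Retnlg and Mmp8 lie apart between the groups, and the other 6 overlap. Of the 10 type II cell markers 4 lie above all controls, 1 lies below and 5 overlap. Over all genes 14.8% lie above and 12.8% below.

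Genes whose values were most like those of Stat3 and Socs3 were found by Pearson's r over the 6 arrays, among all genes with a common symbol. For Stat3 they were the mitochondrial ribosomal protein gene Mrpl51 (0.994), Mybph (0.992), the collagen chain Col6a1 (0.991), Gkn2 (0.990) and the glutamate transporter Slc1a3 (0.990). For Socs3 they were the glutathione transferase Gstt1 (0.995), Rnf123 (0.994), the kinase Mast2 (0.993), Snrnp25 (0.993) and the receptor Tnfrsf14 (0.989). These are descriptions over 6 arrays in 2 groups, and all genes were searched for the highest values. Of these genes Col6a1 and Slc1a3 were called, higher by 0.40 ± 0.08 and 0.55 ± 0.08 (limma adjusted p = 0.0263 and 0.00821). Col6a1 lost its call without knockout 3 (adjusted p = 0.0769), control 1 (0.107), control 2 (0.0724) or control 3 (0.111), and Slc1a3 without control 3 (0.0518).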

How the data were processed

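Messenger RNA was measured on 6 Affymetrix arrays, 3 per group, with the group and replicate number read from each array's title. The deposited values are log2 values that the authors made by RMA, per the submitters' processing notes, which name Affymetrix Expression Console 1.1. RMA removes background, equalises array distributions and condenses each probe set to 1 value, so a shift shared by most genes is removed and differences of dim probe sets are compressed. Of 35556 probe sets 21789 had 1 gene symbol in the platform annotation, 1621 several and 12146 none, which left 19938 genes. Precision is limited by having 3 arrays a group.

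Groups were compared over all genes with limma 3.58.1 in R 4.3.3 (lmFit, eBayes, two-sided, Benjamini-Hochberg adjustment, threshold 0.05), without filter or block, after the fit was tested on simulated data. Pathway genes and lists were chosen with earlier results of these data known. Genes named were the 10 pathway genes, up to 6 called genes per list with the smallest p (up to 2 genes where none was called), Adgrf5 and the 5 genes most like Stat3 and Socs3; others are marked. Same-numbered arrays had deviations from their group means that correlated at 0.192, 0.103 and 0.111 across genes. All exceeded the limit of 0.1, although 0.103 and 0.111 did so narrowly. By that limit the values alone would pair the arrays by number, which the labels do not state. The main fit nonetheless left the arrays unpaired, and the paired fit was run only as an alternative. In the paired fit Il6ra and Stat4 gained a call, and Pim1 and Ptpn11 lost theirs. Here p-values measure the spread between pools. The first number of the titles differed between the groups on every array and is not explained in the labels.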

Additional observations from a re-analysis of the deposited data

How the results depend on the processing

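Each array was left out in turn, and 9 other settings were tried. No named gene that was called changed direction. With 1 array left out, the differences ran from 0.32 to 0.47 for Osmr, -0.51 to -0.31 for Il6ra and 0.19 to 0.40 for Socs3. Called members ran from 0 to 1 higher and 0 to 1 lower, further receptors and proteases from 0 to 1 higher, other kinases and STATs from 0 to 1 in each direction, negative regulators from 0 to 2 higher, STAT3 targets from 2 to 6 higher and acute phase genes from 0 to 1 lower. All genes called ran from 144 to 835 higher and 301 to 1265 lower.

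In the paired fit, with replicate number as a block, Il6ra (-0.41) was called, which made 1 member lower; 1 other kinase or STAT, Stat4, was lower and 1 negative regulator was higher. Apart from these, Pim1 and Ptpn11, no named gene changed its call in that fit. With the first title number as a random block the fitted correlation was -0.513, and Il6 (0.25), Il6ra (-0.39), Stat3 (0.13) and Socs3 (0.33) were called. That gave 4 members higher and 1 lower, 2 receptors or proteases higher, 2 kinases or STATs higher and 1 lower, 1 STAT3 target lower, and 1876 genes higher and 1804 lower. Each first number occurs in 1 group only, so this block cannot separate the number from the group. At the negative correlation the SE narrowed, for Stat3 from 0.050 to 0.036. These added calls are therefore no check on the title number. With array weights Il6ra (-0.43) was called, so 1 member was lower, and 1 kinase or STAT was higher and 1 lower.

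When all probe sets were tested Osmr (0.42) lost its call (limma adjusted p = 0.0742), leaving 0 members higher, 0 receptors or proteases higher, 0 acute phase genes lower and 414 probe sets higher. Among genes above the median level, 1 kinase or STAT and 6 acute phase genes were higher. This setting leaves out dimmer genes that the main fit called. Among them were Fga, Orm1 and Fgg, at the 25.1, 35.3 and 41.4 percentile of all gene means. Centring arrays on their medians left 0 acute phase genes lower, and the mean over probe sets left 1 negative regulator higher. Under the 15 settings the adjusted p of Osmr ran from 0.00423 to 0.137 and that of Il6ra from 0.0147 to 0.272. Beyond the genes left out and the narrowed SE, the cause of these changes was not tested. Dim genes such as Il6 are limited by signal over background.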
